A study of Mus musculus with 20 samples.

Results

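Fibro-adipogenic progenitor markers are genes used to recognise the mesenchymal progenitors that lie between muscle fibres, and 10 of them (Pdgfra, Ly6a, Cd34, Dpp4, Pi16, Osr1, Smoc2, Lum, Dcn and Gsn) were followed in plantaris muscle. They were taken by name from the 54532 genes of the deposited count tables, and 1 of them, Gsn, was selected on its lower CPM after overload in these libraries. Its overload values are therefore a description and carry no test. All 10 markers were found in the tables, had counts in all 20 libraries and passed the filter on low counts in every comparison.

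Fibro-adipogenic progenitors are stromal cells that carry the PDGF receptor alpha and the surface protein Sca-1, which Ly6a encodes. They do not form muscle fibres themselves. After injury or loading they divide, release signals for satellite cells and lay down matrix, and in some settings they give rise to fibroblasts or adipocytes. Fibroblasts marked by Dpp4 and Pi16 are known from the connective tissue around vessels and muscle, and fibroblasts marked by Smoc2 from the tissue between fibres. Several of the markers are not particular to these cells. Cd34 and Ly6a are also made by endothelial cells, Lum and Dcn by tendon cells, and Gsn by many cell types.

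The muscles came from male C57BL/6J mice aged 5 months, 5 with sham surgery and 5 with mechanical overload (MOV), in which part of the gastrocnemius and soleus is cut away on both sides so that the plantaris carries more load. During surgery every mouse received a lentivirus with a TurboGFP reporter in each plantaris, a control virus on the left and a virus carrying a miR-1 mimic on the right, so the sham groups had also been operated on and injected. The virus was driven by a CMV promoter, which is not restricted to muscle fibres. Muscles were taken after 10 days, which gave 5 libraries per combination of surgery (sham or MOV) and virus (control or mimic).

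Between 12036360 and 23056525 reads per library had been counted on genes, with a median of 16940547.5. A gene's level is its CPM, in which counts are divided by library size after TMM normalisation, which scales each library to the bulk of its genes. Differences are given as log2 fold change (log2FC) with its standard error, from edgeR's quasi-likelihood test over all genes. The p-values were adjusted by the method of Benjamini and Hochberg, and a gene was called at an adjusted p under 0.05. In whole muscle, fewer cells of a type and less RNA per cell cannot be told apart. The left and right plantaris of a mouse are not independent animals, and the labels do not say which libraries share a mouse.

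The defining markers Pdgfra, Ly6a and Cd34 were present in all 20 libraries, with at least 230 counts for Pdgfra, 770 for Ly6a and 879 for Cd34. Per kilobase of exon, the mean level in sham control ran from 330.1 CPM for Dcn, 206 for Gsn and 146 for Ly6a, through 87.1 for Lum, 42.8 for Cd34, 24.5 for Smoc2 and 19.1 for Pi16, to 5.67 for Pdgfra, 2.02 for Osr1 and 1.28 for Dpp4. Thus the matrix proteoglycan Dcn stood highest, and the receptor, the transcription factor and the peptidase stood lowest. Exon lengths came from an older annotation (GENCODE M1) than the counts, so this order is approximate. Counting error weighs most on the low genes, since Dpp4 had between 11 and 250 counts per library and Osr1 between 20 and 128.

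**Figure D1:**
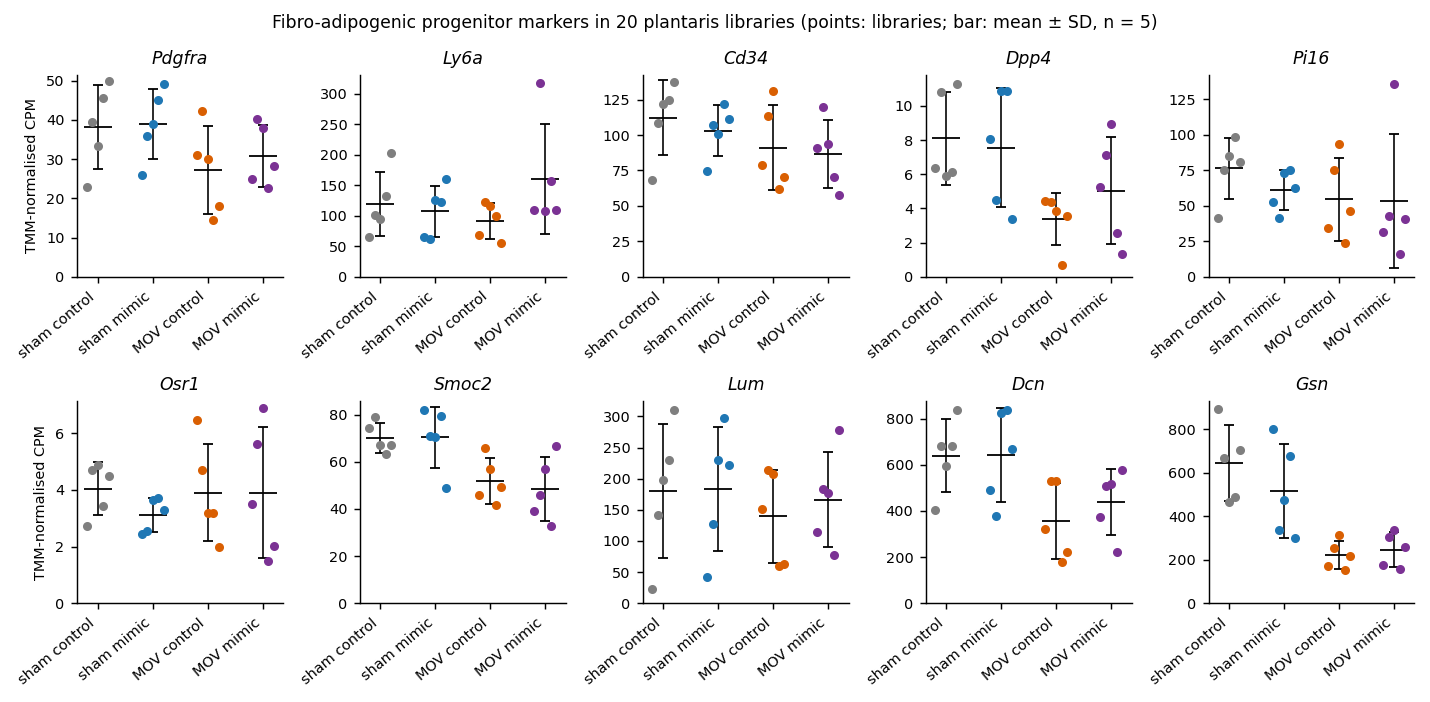
CPM of each of the 10 markers (vertical axis, starting at 0, 1 panel a gene) in the 4 groups (horizontal axis), with a point for each library and a bar for the mean ± SD of 5 libraries. Dpp4 and Gsn, the latter selected on its lower level, lay below all sham control libraries in MOV control, as 2.45% of all genes did. The groups overlapped for the other 8 markers.

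Dpp4 and Gsn were the markers whose MOV control libraries all lay below those of sham control, as 2.45% of all genes did. Gsn had been selected on its lower level. The stretch around an annotated start of each is shown (RefSeq, GRCm38.p6, 250 bases before to 50 bases after the start, in the direction of transcription). Windows were given for 5 of the 10 markers, 7 windows in all, 3 of them for Gsn. The Dpp4 window is chr2:62412182-62412481 on the minus strand and the Gsn window, the 1 with the lowest coordinate, is chr2:35256109-35256408 on the plus strand. Capitals mark matches to TATAAA, the letters of the TATA box, or to GGGCGG, the GC box, on either strand.
Dpp4: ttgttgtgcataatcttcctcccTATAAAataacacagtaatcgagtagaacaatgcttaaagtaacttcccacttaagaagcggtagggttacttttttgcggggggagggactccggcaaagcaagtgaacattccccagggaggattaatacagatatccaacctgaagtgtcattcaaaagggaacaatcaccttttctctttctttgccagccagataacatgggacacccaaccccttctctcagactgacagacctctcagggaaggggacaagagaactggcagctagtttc
Gsn: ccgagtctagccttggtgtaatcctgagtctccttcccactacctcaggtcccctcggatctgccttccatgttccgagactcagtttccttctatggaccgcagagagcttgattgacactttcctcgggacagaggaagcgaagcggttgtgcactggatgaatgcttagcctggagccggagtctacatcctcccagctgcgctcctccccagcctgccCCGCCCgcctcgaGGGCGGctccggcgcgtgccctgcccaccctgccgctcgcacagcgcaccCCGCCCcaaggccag
The Dpp4 window held 1 match to TATAAA, which 13.6% of the 32851 promoter windows of the genome also hold. That match lies near the upstream end of the window and not close to the start. The Gsn window held 3 matches to GGGCGG, and its other starts held 1 and 2. That motif is in 35.7% of all windows. TGANTCA, the AP-1 motif, was in none of the 7 windows and in 7.81% of all windows. These matches describe letters and not binding.

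Overload with the control virus was the first comparison. Of the 9 markers other than Gsn, 9 had a log2FC below 0 in MOV control against sham control, and their median was -0.43, against 0.04 for all genes tested. With MOV control libraries 4 and 5 left out, 7 of 9 were below 0 and the median was -0.19. None of the 9 had an adjusted p under 0.05 with edgeR, where 0.00668% of all genes did (1 of 14974). At an unadjusted p under 0.05, 3 were lower (Dpp4, Dcn and Smoc2), against 9.15% of all genes that were lower at that level. With DESeq2, 1 of the 9 was called lower (Dpp4), against 3.55% of all genes. A log2FC below 0 was found for 45.8% of all genes, and Osr1 turned to 0.14 when library totals replaced TMM. That scaling moved the median of all genes from 0.04 to 0.20 and the genes at an unadjusted p under 0.05 from 1356 higher and 1370 lower to 2450 higher and 787 lower.

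Dpp4 encodes a membrane peptidase that trims chemokines and incretins and marks a progenitor-like type of fibroblast (chromosome 2, 62330073 to 62412315). Its level in sham control was 6.38, 10.8, 5.91, 6.11 and 11.3 CPM for replicates 1 to 5. In MOV control it was 4.45, 4.36, 3.84, 0.699 and 3.58 CPM. Every MOV control library was thus lower than every sham control library, as 2.45% of all genes were, and replicate 4 of MOV control stood apart from its group at 11 counts. The means were 8.11 ± 2.71 and 3.38 ± 1.54 CPM (SD, n = 5). The edgeR log2FC was -1.25 ± 0.40 (standard error), which missed the threshold at an adjusted p of 0.131, while DESeq2 called it at 0.032. Over the alternatives that kept every library or left out MOV control 4 and 5 together, the adjusted p ran from 0.0102 to 0.189. The lower end came from DESeq2 with a block on replicate number, which here joins libraries of different mice. Without MOV control replicate 4 alone the edgeR log2FC was -1.01 (adjusted p 0.15).

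Pi16, a secreted peptidase inhibitor homologue that marks the same fibroblast type as Dpp4 (chromosome 17, 29318796 to 29328903), overlapped between the groups. It was at 41.7 to 98.7 CPM in sham control and at 23.6 to 93.6 CPM in MOV control, with medians of 80.9 and 46.1 CPM. The edgeR fit gave a log2FC of -0.47 ± 0.34 (adjusted p 0.48).

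Among the matrix genes, Dcn and Smoc2 had the lowest p-values. Dcn encodes decorin, a small leucine-rich proteoglycan that binds collagen fibrils and TGF-beta (chromosome 10, 97479500 to 97518163). It was at 402, 682, 596, 680.0 and 836 CPM in sham control and at 324, 529, 529, 179.6 and 221 CPM in MOV control. The lowest sham library lay below the MOV control libraries 2 and 3, so the groups overlapped. The log2FC was -0.84 ± 0.30, with an unadjusted p of 0.0168 in edgeR and 0.17 after adjustment. With DESeq2 the adjusted p was 0.061, within 0.0275 to 0.301 over the same alternatives as for Dpp4. The lower end again came from the DESeq2 block on replicate number.

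Smoc2 encodes a secreted calcium-binding protein of the SPARC family (chromosome 17, 14279490 to 14404790). It was the steadiest marker in sham control, at 74.4, 79.0, 67.0, 63.4 and 67.1 CPM, a coefficient of variation of 9.04%. In MOV control it was at 45.8, 66.1, 57.0, 41.5 and 49.4 CPM. Only MOV control replicate 2 reached into the sham range. The log2FC was -0.43 ± 0.14 with an unadjusted p of 0.00835. The adjusted p was 0.132 with edgeR and 0.0571 with DESeq2, the latter being the lowest of the same alternatives, which reached 0.365. The step between the group means, 18.2 CPM, was larger than either SD.

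Lum encodes lumican, a proteoglycan that shares its fold with decorin and lies on the same chromosome (10, 97565501 to 97572703), yet its values were the most scattered of the matrix genes. Sham control ran from 23.03 to 311 CPM with a median of 199, and MOV control from 60.4 to 215 CPM with a median of 151. The edgeR log2FC was -0.37 ± 0.54 (adjusted p 0.758). It ran from -0.65 without sham control replicate 1 to -0.08 without sham control replicate 5.

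Of the surface markers Pdgfra, Ly6a and Cd34, none was called by edgeR or DESeq2. Pdgfra, the receptor tyrosine kinase that defines these progenitors (chromosome 5, 75151322 to 75198206), was at 22.8, 39.5, 33.3, 45.6 and 49.8 CPM in sham control and at 31.2, 42.3, 30.2, 14.6 and 18.1 CPM in MOV control. MOV control libraries 1 to 3 lay inside the sham range and libraries 4 and 5 below it. The edgeR log2FC was -0.48 ± 0.28 (adjusted p 0.395). Ly6a (chromosome 15, 74994877 to 74998031), whose product Sca-1 is a lipid-anchored surface protein, had a log2FC of -0.36 ± 0.29 (standard error), and -0.09 without sham control replicate 5. The sialomucin Cd34 (chromosome 1, 194938821 to 194961292) had -0.29 ± 0.23. Adjusted p from edgeR was 0.544 for Ly6a and 0.535 for Cd34. Osr1, a zinc finger transcription factor of fibroblastic progenitors (chromosome 12, 9574442 to 9581500), was at 2.72 to 4.90 CPM in sham control and 2.00 to 6.47 CPM in MOV control, and its log2FC was -0.04 ± 0.32 (adjusted p 0.963).

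Gsn encodes gelsolin, which severs and caps actin filaments and also exists as a plasma form (chromosome 2, 35256359 to 35307902). It was chosen for its lower level after overload, and its values describe that choice. In sham control it was at 894, 669, 468, 489 and 706 CPM. In MOV control it was at 171, 253, 315, 152 and 217 CPM, so that no MOV control library reached the lowest sham control library. The means were 645 ± 175 and 222 ± 65.4 CPM (SD, n = 5), and the fitted log2FC was -1.54 ± 0.23. None of the 6 related gelsolin family genes that passed the filter had an unadjusted p under 0.05. Avil had the smallest p (log2FC -0.47, adjusted p 0.403 from edgeR), followed by Flii (0.12 and 0.644).

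**Figure D2:**
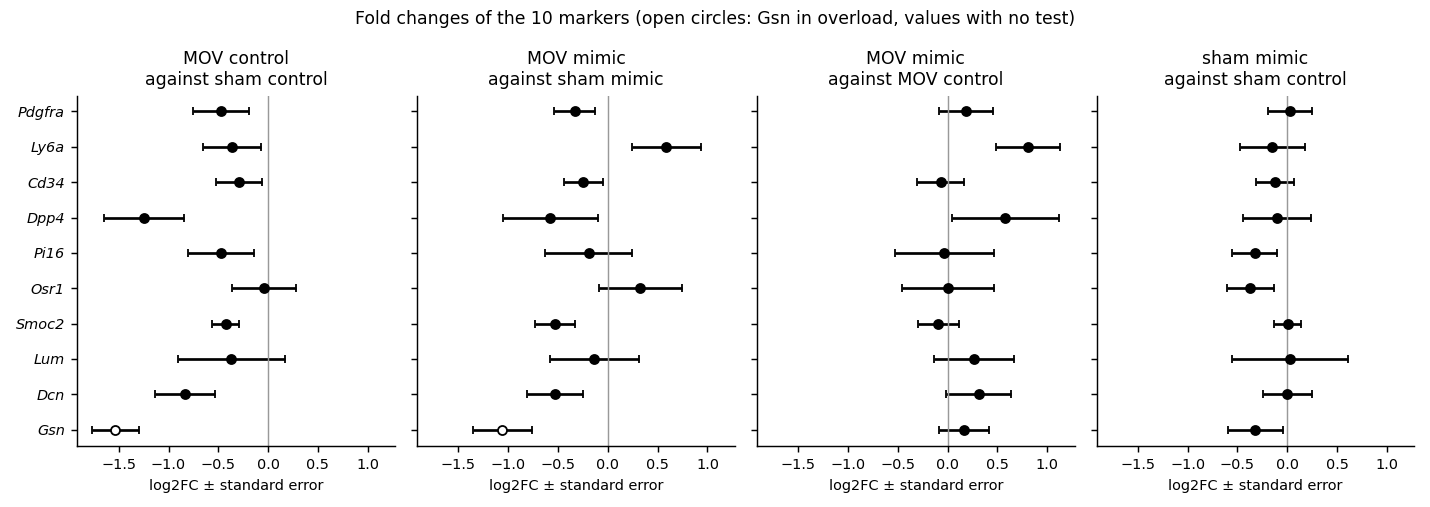
log2FC (horizontal axis) with its standard error for each of the 10 markers (vertical axis) in 4 comparisons, from edgeR with 5 libraries per group. Open circles are Gsn after overload, given with no test. In MOV control against sham control all points lie below 0, from -0.04 for Osr1, which turns to 0.14 with library totals, to -1.54 for Gsn. In MOV mimic against MOV control the point farthest from 0 is Ly6a at 0.81.

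The MOV control libraries differed among themselves. Replicates 4 and 5 were low in genes of activated matrix-forming fibroblasts (14 genes, summed level 5436 and 3958 CPM, against 12550 to 14710 CPM in replicates 1 to 3) and in leukocyte markers (10 genes, 202 and 234 CPM, against 576 to 781 CPM). They were high in fast myofibre genes, at 152000 and 174800 CPM against 101400 to 118500 CPM. With these libraries left out together, an alternative chosen after seeing the data, log2FC was -0.16 for Pdgfra, -0.24 for Ly6a, -0.07 for Cd34, -0.19 for Pi16, 0.06 for Lum and 0.22 for Osr1. It was -0.96 for Dpp4, -0.49 for Dcn, -0.33 for Smoc2 and -1.40 for Gsn. None of the 9 markers other than Gsn was then called by edgeR, where 12 of all genes were. In the sham groups, replicate 1 of each virus stood low in the activated genes, at 668 CPM in sham control and 1077 CPM in sham mimic, and in leukocyte markers, at 212 and 221 CPM. It stood high in fast myofibre genes, at 207100 and 208200 CPM. In each case it held the lowest Pdgfra and Lum and the highest Gsn of its group, with Gsn at 894 and 799.5 CPM. Without sham control replicate 1, log2FC in MOV control against sham control was -0.65 for Lum, -0.52 for Ly6a and -1.39 for Gsn. The part of such differences between libraries in the group comparisons was not tested.

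**Figure D3:**
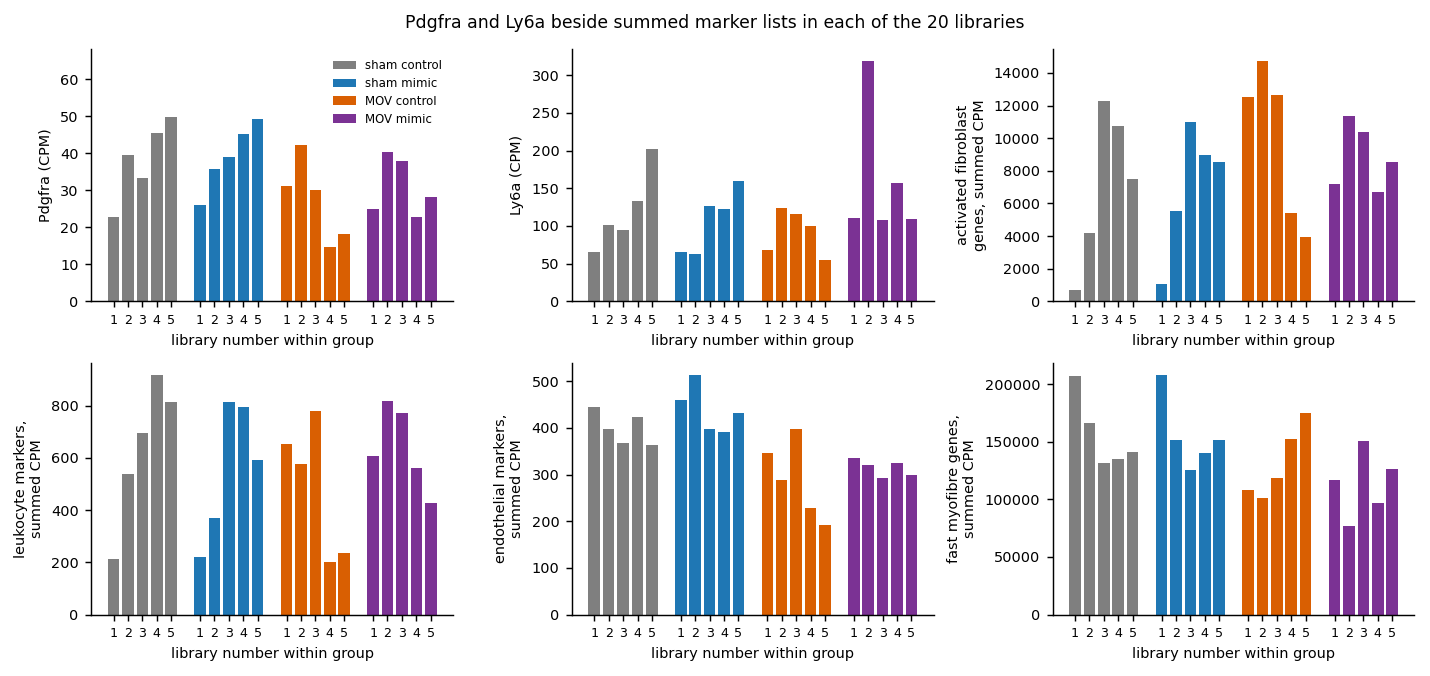
Level in each of the 20 libraries (horizontal axis, numbered 1 to 5 within 4 coloured groups) of Pdgfra and Ly6a in CPM and of activated fibroblast, leukocyte, endothelial and fast myofibre genes in summed CPM (vertical axes, starting at 0). MOV control 4 and 5 are low for Pdgfra, at 14.6 and 18.1 CPM, and for the activated, leukocyte and endothelial genes. Ly6a in MOV mimic 2 reaches 319 CPM.

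Other genes of the same fibroblast types were compared in the same fit. Of 11 further genes of Dpp4/Pi16-type fibroblasts, 9 had a log2FC below 0 (45.8% of all genes) and 5 were lower at an unadjusted p under 0.05 (9.15% of all genes), with a list median of -0.50. None was called by edgeR. The 2 with the smallest p were Igfbp6, an IGF binding protein (log2FC -0.93, adjusted p 0.0809 from edgeR), and Procr, the protein C receptor (-1.24 and 0.0809). DESeq2 called 5 of the 11 lower, namely these 2 and Pcolce2, Efhd1 and Ackr3, named here after their values were seen, against 3.55% of all genes. Of 9 further genes of Smoc2/Cxcl14-type fibroblasts, 7 were below 0 and 3 were lower at an unadjusted p under 0.05, against the same shares of all genes, and the median was -0.52. DESeq2 called 1 of them lower, Abca8a. Abca8a, a lipid transporter, was at -0.99 with an adjusted p of 0.0665 from edgeR, and Hsd11b1, which regenerates glucocorticoids, at -0.82 with 0.202.

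Genes of activated fibroblasts took the other direction in their median, 0.71 over 14 genes, and 13 of the 14 lay above 0. At an unadjusted p under 0.05 only Tnc, the matrix glycoprotein tenascin-C, was higher, against 9.06% of all genes (log2FC 1.48, adjusted p 0.177 from edgeR), and Ccn4 followed at 1.04 with 0.348. The summed level ran from 668 to 12280 CPM in sham control, and neither edgeR nor DESeq2 called any of the 14. Among other small leucine-rich proteoglycans, 11 of 14 passed the filter. Podnl1 was at 2.05 and Chad at -1.62, with adjusted p of 0.142 and 0.154 from edgeR, and DESeq2 called both, where it called 2.67% of all genes higher and 3.55% lower.

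Ligands, regulators and released signals were not called by edgeR. None of the 6 genes for PDGF ligands, the sister receptor Pdgfrb and Pdgfrl had an unadjusted p under 0.05, and the 2 with the smallest p were Pdgfa at -0.25 and Pdgfb at 0.28. Of 11 transcription factors of fibroblastic progenitors, 9 passed the filter and none had an unadjusted p under 0.05. Pparg, the adipogenic nuclear receptor, was at -0.60 with an adjusted p of 0.325, and Tcf7l2 at 0.39 with 0.399. Tcf21 was at 0 counts in all 20 libraries. Of 10 signals that these progenitors release, the chemokine Ccl11 was at -1.34 with an adjusted p from edgeR of 0.0554 and follistatin (Fst) was at 0.79 with 0.131. DESeq2 called 2 of the 10 lower, against 3.55% of all genes, namely Ccl11 and Cxcl12, the latter named after its value was seen (log2FC -0.67, adjusted p 0.0474 from DESeq2).

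Markers of other cells were read in the same libraries. Endothelial markers were at a summed 363 to 445 CPM in sham control and 193 to 398 CPM in MOV control, with Flt1 at -0.95 (adjusted p 0.0679) and Kdr at -0.80 (adjusted p 0.0763) in edgeR, and 9 of 10 below 0. None of the 10 was at 0. Pericyte and smooth muscle markers ran from 609 to 816 CPM and from 504 to 631 CPM, with Kcnj8 at -1.26 (adjusted p 0.0551) and Rgs5 at -0.81 (adjusted p 0.0696). The leukocyte markers had a median log2FC of -0.35, tenocyte markers 0.31, Schwann cell markers 0.10, fast myofibre genes -0.19 and satellite cell markers 0.25, with Pax7 at 1.17 (adjusted p 0.063). Adipocyte markers had the median farthest from 0 of the lists, -1.46 with 5 of 5 tested below 0. They were at a summed 9.90 to 52.9 CPM in sham control and 1.14 to 23.8 CPM in MOV control. Neither edgeR nor DESeq2 called any of them in the fits that leave replicate numbers out, which do not pair mice in this comparison. Ly6c1, a relative of Ly6a that endothelial cells make, was at -0.69 with an adjusted p of 0.12, and Sparcl1, a relative of Smoc2, at -0.81 with 0.0554. DESeq2 also called genes of these lists, namely Flt1 and Kdr of the endothelial markers, Kcnj8, Rgs5 and Myh11 of the pericyte and smooth muscle markers, Ly6c1, Sparcl1 and the fast myosin gene Myh4 lower, and Pax7 higher, where it called 3.55% of all genes lower and 2.67% higher. The part of these cells in the marker values was not tested.

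**Figure D4:**
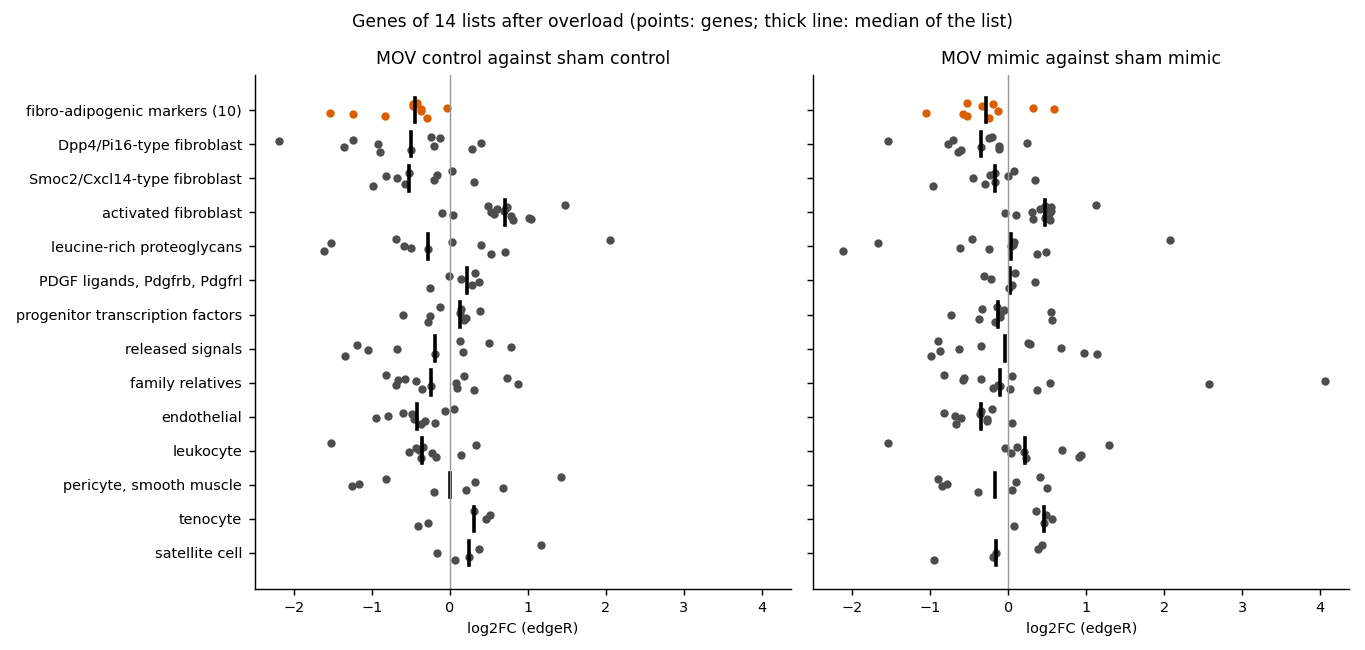
log2FC from edgeR (horizontal axis) of each gene (point) in 14 gene lists (vertical axis), in MOV control against sham control and in MOV mimic against sham mimic, with a thick line at the median of each list. The 10 markers, which include Gsn, selected on its lower level, have medians of -0.45 and -0.29. The activated fibroblast genes have medians of 0.71 and 0.47.

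Overload under the miR-1 mimic was compared between other libraries, although from the opposite legs of the same mice. In MOV mimic against sham mimic, 7 of the 9 markers other than Gsn had a log2FC below 0, where 48.2% of all genes did, and their median was -0.25 against 0.02 for all genes. None was called by edgeR, which called 0.0% of 14918 genes, or by DESeq2, which called 0.897% higher and 0.691% lower. At an unadjusted p under 0.05 only Smoc2 was lower, against 6.08% of all genes. Library totals moved the median of all genes to 0.22 and the genes at an unadjusted p under 0.05 from 1090 higher and 907 lower to 2375 higher and 275 lower.

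Smoc2 was at 82.0, 70.9, 70.4, 79.7 and 49.1 CPM in sham mimic and at 39.3, 46.0, 56.9, 32.9 and 66.8 CPM in MOV mimic. The groups overlapped through sham mimic replicate 5 and MOV mimic replicates 3 and 5. The log2FC was -0.53 ± 0.20, with an unadjusted p of 0.022 in edgeR and 0.319 after adjustment. Dcn was at 491, 378, 826, 839 and 668 CPM in sham mimic and at 373, 506, 515, 224 and 579 CPM in MOV mimic, and its log2FC was -0.53 ± 0.28 (adjusted p 0.433). Dpp4, which had not overlapped between groups under the control virus, did so here, at 8.07, 4.52, 10.9, 10.8 and 3.40 CPM in sham mimic and 5.24, 7.13, 8.92, 2.58 and 1.33 CPM in MOV mimic. Its log2FC was -0.58 ± 0.48 (adjusted p 0.622).

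For the remaining markers no difference was detectable with edgeR. The log2FC was -0.33 ± 0.21 for Pdgfra, -0.25 ± 0.20 for Cd34, -0.19 ± 0.44 for Pi16, -0.14 ± 0.44 for Lum, 0.32 ± 0.42 for Osr1 and 0.59 ± 0.35 for Ly6a (standard errors), with adjusted p from edgeR between 0.489 and 0.917. Without MOV mimic replicate 2 the log2FC of Ly6a was 0.17, and without MOV mimic replicate 3 that of Osr1 was 0.0279 and that of Pi16 -0.88. Gsn, again a description, was at 799.5, 339, 476, 676 and 298 CPM in sham mimic and at 177, 306, 336, 155 and 259 CPM in MOV mimic. Its log2FC was -1.06 ± 0.30. Here the groups overlapped, since sham mimic replicate 5 lay below MOV mimic replicates 2 and 3.

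In the related lists, 10 of 11 genes of the Dpp4/Pi16 type lay below 0, with Ackr3 at -0.65 and Igfbp6 at -0.77 (adjusted p 0.30 and 0.306 from edgeR), and 13 of 14 activated fibroblast genes lay above 0. Abca8a was at -0.97 with an adjusted p of 0.267 from edgeR and 0.0251 from DESeq2. Endothelial markers ran from 392 to 514 CPM in sham mimic and from 292 to 335 CPM in MOV mimic, so the sums did not overlap. Tek was at -0.82 (adjusted p 0.141 from edgeR and 7.25e-05 from DESeq2) and Cdh5 at -0.66 (0.26 and 0.00997). DESeq2 called 4 of the 10 lower, against 0.691% of all genes. Of 8 pericyte and smooth muscle markers, 4 lay above 0, and DESeq2 called 1 lower, Rgs5 (log2FC -0.90, adjusted p 0.201 from edgeR and 7.25e-05 from DESeq2). Sparcl1 was at -0.82 (0.213 and 0.0011). Leukocyte markers had a median log2FC of 0.21, with Ptprc at 1.29 (adjusted p 0.295). The part of these cells was not tested.

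The mimic was then compared with the control virus within overloaded muscle. In fits without pairing of the legs, none of the 10 markers was called by edgeR, which called 0.0% of 15220 genes, or by DESeq2. That DESeq2 fit called 0.0% of genes higher and 0.0197% lower (3 of 15207). At an unadjusted p under 0.05, 1 marker was higher, Ly6a, against 2.46% of all genes. The median log2FC of the 10 markers was 0.17, with 3 below 0 where 50.7% of all genes were, and -0.01 for all genes.

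Ly6a was at 68.01, 123, 116, 99.3 and 55.1 CPM in MOV control and at 109.9, 319, 108, 157 and 109.5 CPM in MOV mimic. MOV mimic replicate 2 stood apart from its group, and the other 4 lay between 108 and 157 CPM, overlapping the 2 highest MOV control libraries. Without pairing of the legs, the log2FC was 0.81 ± 0.32, with an unadjusted p of 0.0256 in edgeR and 0.999 after adjustment. It was 0.40 without MOV mimic replicate 2. With replicate numbers taken as pairs, which the labels do not tie to mice, DESeq2 called Ly6a higher (log2FC 0.74, adjusted p 0.0162). It called 0.552% of all genes higher in that fit. The edgeR fit with the same pairs did not call Ly6a (adjusted p 0.391). Ly6a has close paralogs beside it in the genome, and how reads with several alignments were counted is not given in the sources used here, so its counts may be shared with them.

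In the same comparison 8 of 13 genes related to the markers by family and 9 of 10 leukocyte markers had a log2FC above 0, where 50.7% of all genes were below 0, and none of them was called by edgeR or by DESeq2 in the fits without pairing. Ly6c2, a marker of inflammatory monocytes, ran from 3.30 to 8.89 CPM in MOV control while the mimic libraries spanned 2.41 to 45.1 CPM (log2FC 1.78, unadjusted p 0.0101 from edgeR). Ly6i ran from 0.0533 to 3.14 CPM and from 0.127 to 18.7 CPM. Among leukocyte markers, Ptprc (the pan-leukocyte CD45) had a log2FC of 1.09, running from 12.4 to 35.4 CPM under the control virus and from 18.8 to 91.8 CPM under the mimic, and Itgam had 1.18. Their adjusted p from edgeR was 0.999 each. The 10 leukocyte markers summed to 202 to 781 CPM in MOV control, where MOV mimic gave 428 to 819 CPM. Monocyte-attracting chemokines that progenitors can release, Ccl7 and Ccl2, were at log2FC of 1.51 and 1.5 with unadjusted p of 0.00283 and 0.0158 from edgeR (adjusted 0.999 each). The part of leukocytes in the Ly6a value was not tested.

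For the other markers no difference between MOV mimic and MOV control was detectable with edgeR. The log2FC was 0.58 ± 0.54 for Dpp4, 0.31 ± 0.33 for Dcn, 0.27 ± 0.40 for Lum, 0.18 ± 0.27 for Pdgfra, 0.16 ± 0.25 for Gsn, -0.07 ± 0.24 for Cd34 and -0.09 ± 0.20 for Smoc2 (standard errors). With 1 library left out it ran from 0.28 to 0.82 for Dpp4, 0.14 to 0.50 for Dcn, 0.02 to 0.40 for Pdgfra and 0.03 to 0.32 for Gsn. For Pi16 it was -0.03 ± 0.49, and MOV mimic replicate 3 stood apart at 136 CPM, where the other MOV mimic libraries were at 31.4, 42.8, 16.2 and 40.5 CPM. Without that library the log2FC of Pi16 was -0.73. Osr1 averaged 3.909 CPM in MOV control, and its average in MOV mimic was 3.901 CPM. With MOV control libraries 4 and 5 left out, the log2FC was -0.15 for Pdgfra, -0.18 for Lum, -0.05 for Dcn, -0.28 for Osr1 and 0.67 for Ly6a.

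In sham muscle no difference between mimic and control virus was larger than the spread of the libraries. The log2FC ran from -0.37 ± 0.24 for Osr1 to 0.03 ± 0.22 for Pdgfra, and the groups overlapped for all 10 markers. None had an unadjusted p under 0.05 with edgeR, where 1.16% of 14746 genes were lower and 0.563% higher at that level, and no gene was called by edgeR (0.0%) or by DESeq2. Matrix genes were nearly level, with mean Dcn at 639 ± 158 CPM in sham control and 640.3 ± 204 CPM in sham mimic, mean Smoc2 at 70.2 ± 6.35 and 70.4 ± 12.97 CPM, and mean Lum at 181 ± 107 and 184 ± 99.8 CPM (SD, n = 5). Gsn was at 645 ± 175 and 518 ± 216 CPM, a log2FC of -0.32 ± 0.28.

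Whether overload acted differently on the markers under each virus was tested by the interaction of surgery and virus over 20 libraries. No gene was called by edgeR (0.0% of 16166), and none of the 9 markers other than Gsn had an unadjusted p under 0.05, where 1.3% of all genes were higher and 1.34% lower at that level. DESeq2 called 0.0% higher and 0.00619% lower (1 gene), and none of the markers. Of the 9, 1 was below 0, and 52.0% of all genes were. The interaction was 0.95 ± 0.49 for Ly6a (unadjusted p 0.0647), 0.67 ± 0.66 for Dpp4, 0.37 ± 0.53 for Osr1, 0.30 ± 0.43 for Dcn and -0.11 ± 0.25 for Smoc2 (standard errors), with adjusted p of 1.00 from edgeR. It was 0.55 for Ly6a without MOV mimic replicate 2, and 0.37 for Dpp4 and 0.0665 for Osr1 without MOV mimic replicate 3. For Gsn it was 0.47 ± 0.40, with no test. The standard errors, from 0.25 for Smoc2 to 0.75 for Lum, limit what could be detected.

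Across the 4 groups, the order of mean levels followed surgery for all markers but Ly6a and Osr1, for most of them by steps within the SD. Smoc2 and Dcn stood higher in both sham groups than in both MOV groups. The step between sham and MOV exceeded the larger SD of the neighbouring groups for Smoc2 (18.2 CPM between sham control and MOV control, SD 9.74). It also did so for Dcn (between sham control at 639 CPM and MOV mimic at 439 CPM, SD 158). The Dcn step crosses virus as well as surgery, and sham mimic, at 640.3 CPM, had a larger SD of 204 CPM. Gsn, selected on this order, had means of 645 and 518 CPM in the sham groups and 222 and 247 CPM in the MOV groups. Pdgfra, Dpp4, Lum, Cd34 and Pi16 also had both sham groups above both MOV groups, with steps within the SD. Ly6a was highest in MOV mimic, at 161 ± 90.7 CPM against 92.2 to 119 CPM elsewhere, and Osr1 was lowest in sham mimic, at 3.13 ± 0.60 CPM against 3.901 to 4.05 CPM, again within the SD.

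The markers did not vary as 1 block from library to library. With the group means removed, Pearson's r of log2 CPM was taken for the 45 pairs of markers over 20 libraries, which share scaling and, by leg, mice, so it is a description. The median r was 0.53, with 25 pairs over 0.5 and 3 under 0. Pdgfra varied most closely with Lum (0.83), Dcn (0.82) and Cd34 (0.80). Pi16 varied with Dcn (0.78), and Smoc2 with Gsn (0.76). Gsn and Smoc2 had little in common with Pdgfra (0.13 and 0.22) and with Lum (-0.08 and 0.17), and Ly6a and Smoc2 had the lowest r, -0.23. The Dpp4 and Pi16 pair, which mark the same fibroblast type, had an r of 0.55.

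**Figure D5:**
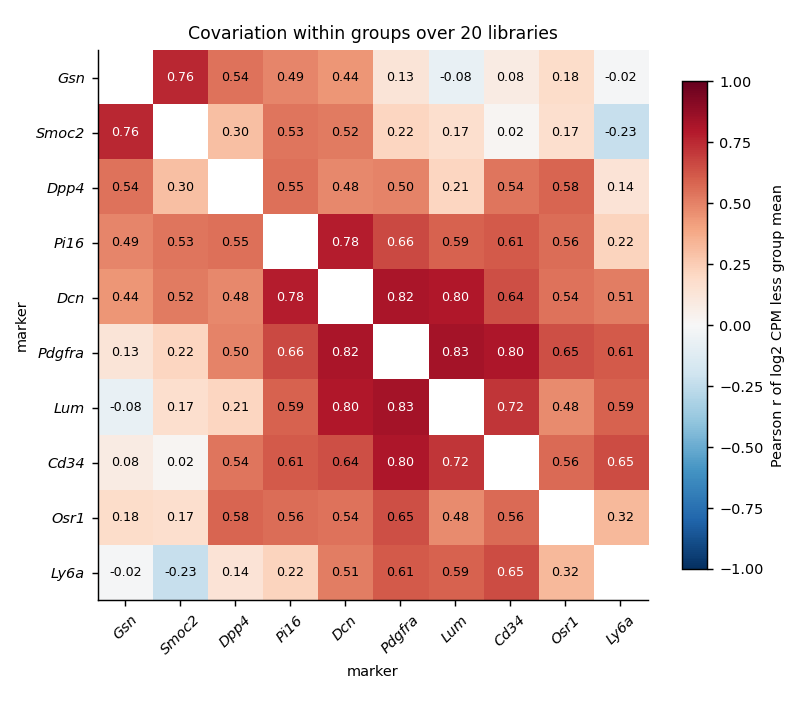
Pearson's r of log2 CPM less the group mean over 20 libraries for each pair of the 10 markers (both axes), from blue at -1 to red at 1. Pdgfra, Lum, Dcn and Cd34 form a group with r from 0.64 to 0.83, and Gsn with Smoc2 stands beside it at 0.76.

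For each marker, genes among the 3 with the highest r by the same measure were taken from 16166 genes, as a description. Pdgfra was closest to the collagen receptor Ddr2 (0.97), with Reep3 (0.91) also among its 3. Lum was closest to the protease Ctsk (0.98), then Matn2 (0.96) and Pdia4 (0.96), and Dcn to Rnase4 (0.93), the proteoglycan Prelp (0.92) and Ctsb (0.92). Smoc2 was closest to P2ry1 (0.88), Hgsnat (0.86) and 2510009E07Rik (0.86), and Gsn to Myoc (0.88), Mcrs1 (0.86) and Pdpr (0.86). Ly6a was closest to a gene without a symbol (0.93), Fgl2 (0.92) and Xdh (0.90), and Cd34 to 4632428N05Rik (0.93), with Rassf4 (0.91) also among its 3. Pi16 was closest to Alox5 (0.92), Cd302 (0.90) and F13a1 (0.87), and Osr1 to Naip2 (0.86), Tax1bp3 (0.85) and Pcdh18 (0.85). Dpp4 had the lowest best match, Efemp1 (0.80), followed by Has2as (0.79) and 5031414D18Rik (0.79).

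Annotated genes overlap the loci of 6 markers, namely Mir7025 at Pdgfra, Gm28068 at Ly6a, Gm16897 at Cd34, Gm46603 at Pi16, 4930474M22Rik and Gm52280 at Smoc2 and Gm39795 at Gsn (RefSeq, GRCm38.p6, the assembly of all coordinates given). The strand setting of the counting is not given in the sources used here, so reads of a marker and of a gene on the other strand cannot be told apart.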

How the data were processed

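RNA-seq libraries of 20 plantaris muscles were used. Per the labels and the study's methods, libraries were made with the NEBNext Ultra II kit, checked with FastQC 0.11.9, trimmed with Trim Galore 0.6.10 (Cutadapt 4.4), aligned to GRCm38 with HISAT2 2.0.5 and counted with featureCounts 1.5.0-p3. The authors deposited raw counts per Ensembl gene, unnormalised and unfiltered, in 1 table for control and 1 for mimic. The annotation, strand setting and treatment of reads with several alignments are not given in the sources used here. Gene symbols were matched for 32640 of 54532 genes. No 2 libraries of a group agreed within sampling noise (chi-square per gene 13.9 to 168 over the 40 pairs within groups).

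Groups were read from the treatment labels. Each comparison was fitted over all genes with edgeR 4.0.16 (TMM, filterByExpr, glmQLFTest, two-sided) in R 4.3.3 on the 10 libraries compared, or on 20 for the interaction. Alternatives were DESeq2 1.42.0, its size factors, library totals, no filter, a replicate block, all 20 libraries, and each library left out. CPM used TMM factors of 20 libraries, and correlations log2 CPM with a prior count of 2. Values far from their group were found by Dixon's ratio (0.71 for 5 libraries). p-values measure the spread between these libraries. The precision of low counts is limited by depth (12036360 to 23056525 reads on genes per library).

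The markers and gene lists were chosen with earlier results of these data known. All 10 markers are named in every comparison, and from other lists up to 4 called genes or, where none was called, the 2 with the smallest p, and for each marker the 3 genes with the highest r, of which some are not reported here. The fitting code was tested on simulated data. miR-1 sequence and target sites were not analysed here.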

Additional observations from a re-analysis of the deposited data

Results flagged for a closer look

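The markers were searched for libraries far from the others of their group, 40 groups of 5 libraries in all, of which chance flags about 1 in 20. There were 3. Ly6a in MOV mimic replicate 2 was at 318.5 CPM, with the nearest library of the group at 157 CPM. Dpp4 in MOV control replicate 4 was at 0.699 CPM, with the nearest at 3.58 CPM. Pi16 in MOV mimic replicate 3 was at 135.8 CPM, with the nearest at 42.8 CPM. These are 3 different libraries, and the cause was not tested.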

How the results depend on the processing

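Marker calls depended on the tool. In MOV control against sham control edgeR called 0 of 9 markers, DESeq2 1 (Dpp4), and DESeq2 with a replicate block 2. These 2 were Dpp4 (adjusted p 0.0102) and Dcn (0.0275), where that fit called 2.71% of all genes lower. Sham and MOV libraries came from different mice. In comparisons of surgery the block thus joins unrelated animals, and its calls are not paired results. In MOV mimic against MOV control DESeq2 with the block called 1 of 10 (Ly6a, log2FC 0.74, adjusted p 0.0162, against 0.552% of all genes higher), within 0.0162 to 1.00 over its alternatives. From the other lists, DESeq2 called only with the block Ptprc (0.00907), Ly6i (0.0103) and Ccl7 (0.0103) in that comparison, Cfd (3.29e-06), Plin1 (0.0155), Cidec (0.0268) and Adipoq (0.0332) in MOV control against sham control, and Tnc (0.0131) in MOV mimic against sham mimic. The edgeR block gave these 8 genes adjusted p of 0.103 to 0.53. In MOV control against sham control the DESeq2 block also lost calls that DESeq2 had made without it. These were Myh4 (adjusted p 0.132 with the block), Ly6c1 (0.0995), Cxcl12 (0.0724) and Ackr3 (0.0683). The edgeR block called none of the tested markers in any comparison.

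Over all genes, MOV control against sham control gave 1 call with edgeR, 913 with DESeq2, 722 with DESeq2 and the block, 1 with edgeR and the block, 0 with library totals, 388 with no filter, 36 with all 20 libraries fitted, 12 without MOV control 4 and 5, and 0 to 426 with 1 library left out (426 without sham control replicate 3). MOV mimic against sham mimic gave 0, and 223 with DESeq2, 114 with its block, 1 with no filter, 3 with all 20 libraries and 0 to 101 with 1 left out (101 without MOV mimic replicate 5). MOV mimic against MOV control gave 0, and 3 with DESeq2, 127 with its block and 1 with all 20 libraries. The interaction gave 0, and 1 with DESeq2 and 5 with its block. The cause was not tested.

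The sign of log2FC changed for some markers, none of them called. In MOV control against sham control Osr1 was 0.14 with library totals and 0.22 without MOV control 4 and 5, and Lum 0.0551 without them. For MOV mimic against sham mimic Lum was 0.0347 with the edgeR block and 0.0362 with the DESeq2 block. In MOV mimic against MOV control Osr1 was -0.007 with no filter, -0.10 and -0.10 with the edgeR and DESeq2 blocks, -0.0038 with all 20 libraries and -0.28 without MOV control 4 and 5, which also turned Pdgfra to -0.15, Lum to -0.18 and Dcn to -0.0475. In sham mimic against sham control Smoc2 was -0.013 and -0.004 with the blocks, and Dcn -0.0002 with library totals and -0.0209 and -0.0121 with the blocks.

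With 1 library left out, log2FC in MOV control against sham control ran from -0.30 to 0.12 for Osr1. Against sham mimic, MOV mimic ran from -0.88 to 0.0399 for Pi16 and -0.42 to 0.11 for Lum. For MOV mimic against MOV control it ran from -0.22 to 0.0933 for Cd34, -0.73 to 0.25 for Pi16, -0.29 to 0.26 for Osr1, -0.25 to 0.0212 for Smoc2 and -0.0106 to 0.48 for Lum. In sham mimic against sham control it ran from -0.11 to 0.15 for Pdgfra, -0.34 to 0.12 for Ly6a, -0.27 to 0.0852 for Dpp4, -0.0513 to 0.11 for Smoc2, -0.26 to 0.31 for Lum and -0.13 to 0.15 for Dcn. For the interaction it ran from -0.10 to 0.21 for Cd34, -0.42 to 0.57 for Pi16, -0.25 to 0.022 for Smoc2 and -0.0415 to 0.54 for Lum. The markers not named for a comparison kept their direction there whichever library was left out.

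The labels number replicates but do not tie them to mice. Libraries with the same number deviated together with r from 0.0347 to 0.321 (mean 0.163, against -0.0398 for other numbers) between the MOV groups and from 0.0116 to 0.663 (mean 0.232, against -0.0524) between the sham groups. Each number matched best with itself in 5 of 5 MOV pairs and 3 of 5 sham pairs. Not every pair exceeded 0.1, the level set for using the numbers as pairs, so the fits without the block are the ones reported, although this is a hint in the data that numbers may mark mice. Between sham and MOV libraries, which came from different mice, the same numbers had a mean r of -0.0793 with the control virus and -0.087 with the mimic. There 0 of 5 numbers matched best with themselves under either virus. Depth limits Dpp4 and Osr1 most, with as few as 11 and 20 counts in a library.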
